A study of Mus musculus with 2 samples.

Results

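The genes described here are those of arginase and polyamine metabolism: Arg1, Arg2, Oat, Odc1, Oaz1, Oaz2, Amd1, Srm, Sms and Sat1. They are represented by the gene probes whose name in both scanner files equals one of these 10 symbols, which gave 10 of 27845 gene names and 20 probes of 41174 on the array. On each array 19 of them had a signal well above background in 1 channel or both, which placed them among the 23519 probes tested. The probe left out is 1 of 3 for Sms. The genes were chosen by topic with the log2 ratios of this comparison already known, and these ratios count as the values that selected them. They are therefore given as a description. Where the fit across all probes places them past a threshold, nothing is read from that.

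Total RNA of mouse keratinocytes was measured on 2 two-colour Agilent whole-genome arrays. Each array set wild-type keratinocytes, labelled with Cy3, against keratinocytes labelled with Cy5, which the titles call CHUK-LoxP mutant keratinocytes. The latter are taken here as deleted for Chuk and are called Chuk-deleted. Chuk encodes IKKα, which phosphorylates proteins of NF-κB signalling, and the series title ties it to skin homeostasis and skin cancer. The Cre driver, the age and strain of the mice, the number of animals and the culture conditions are not given in the sources used here. The labels number the arrays as replicates 1 and 2 and do not name separate cultures or animals, so spread and p-values cover only these 2 arrays and may be technical. No dye swap is named, and a dye effect on a single probe cannot be told apart from an effect of genotype.

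The median spot intensity lay between 95.2 and 109.9 in Cy3 and between 171.5 and 218 in Cy5, over local backgrounds of 41 to 42 and 72 to 74. In the channel called Chuk-deleted both probes of Chuk itself read higher, with mean log2 ratios of 0.74 ± 0.02 and 0.85 ± 0.11 (SD, n = 2, adjusted p = 0.000101 and 0.000103, limma with Benjamini-Hochberg adjustment). This goes against that name. The deleted part of the gene and the place of the probes in it are, however, not given in the sources used here. A probe outside that part checks nothing. Every direction therefore rests on the channel labels alone. All 10 keratinocyte markers examined were well above background. So were 10 of 10 fibroblast, 6 of 7 melanocyte, 5 of 8 macrophage, 1 of 5 endothelial and 2 of 5 T cell markers.

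Arginase cleaves arginine into urea and ornithine. Ornithine is decarboxylated to putrescine, to which aminopropyl groups from decarboxylated S-adenosylmethionine are added to form spermidine and then spermine. Alternatively ornithine is turned toward proline and glutamate. Polyamines bind nucleic acids and are needed for growth. In skin, ornithine decarboxylase is abundant in proliferating cells and is a classical marker of tumour promotion, and arginase 1 is known from the differentiating epidermis and from alternatively activated macrophages.

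A log2 ratio here is the log2 of Cy5 (Chuk-deleted) over Cy3 (wild type) after loess normalisation, so a negative value is a lower signal in the Chuk-deleted channel. Arg1 stood apart from the other 9 genes: its signal was 5.66-fold lower in the Chuk-deleted channel on array 1 and 53.8-fold lower on array 2. Under loess the other genes lay within 2-fold. Amd1, Oaz2, Sat1, Arg2 and Oaz1 were lower on both arrays, Oat and Srm were higher on both, 2 of 3 Odc1 probes were higher on both, and Sms lay near 0. For the genes other than Arg1, Arg2 and Amd1, these directions held in the scanner software's own ratio, Sms apart, and most of them flipped under 1 of the other settings. Centring each array on its median in place of loess, which changes 2 choices together, lifted the median of all tested probes by 0.45. Both probes of Oaz1 and of Sat1 and 3 of 4 probes of Oaz2 were then positive, Odc1 lay at 0.87 to 1.19, Oat at 1.13 and Srm at 0.90. Under loess the spike-in control RNAs themselves ran from -1.61 to 3.02 on array 1 and from -2.07 to 3.70 on array 2. The ratios at which they were mixed were not used here, so whether their mean should lie at 0 was not checked. Loess followed by centring on that mean moved the median of all tested probes by -0.76. Every tested probe of Oat, Srm, Odc1 and Sms was then negative, and every tested probe of Amd1 (-1.61 and -1.47), Oaz2 (-1.47 to -1.28), Sat1 (-1.22 and -1.12), Arg2 (-1.21) and Oaz1 (-1.105 and -1.003) was more than 2-fold lower in its mean.

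**Figure D1:**
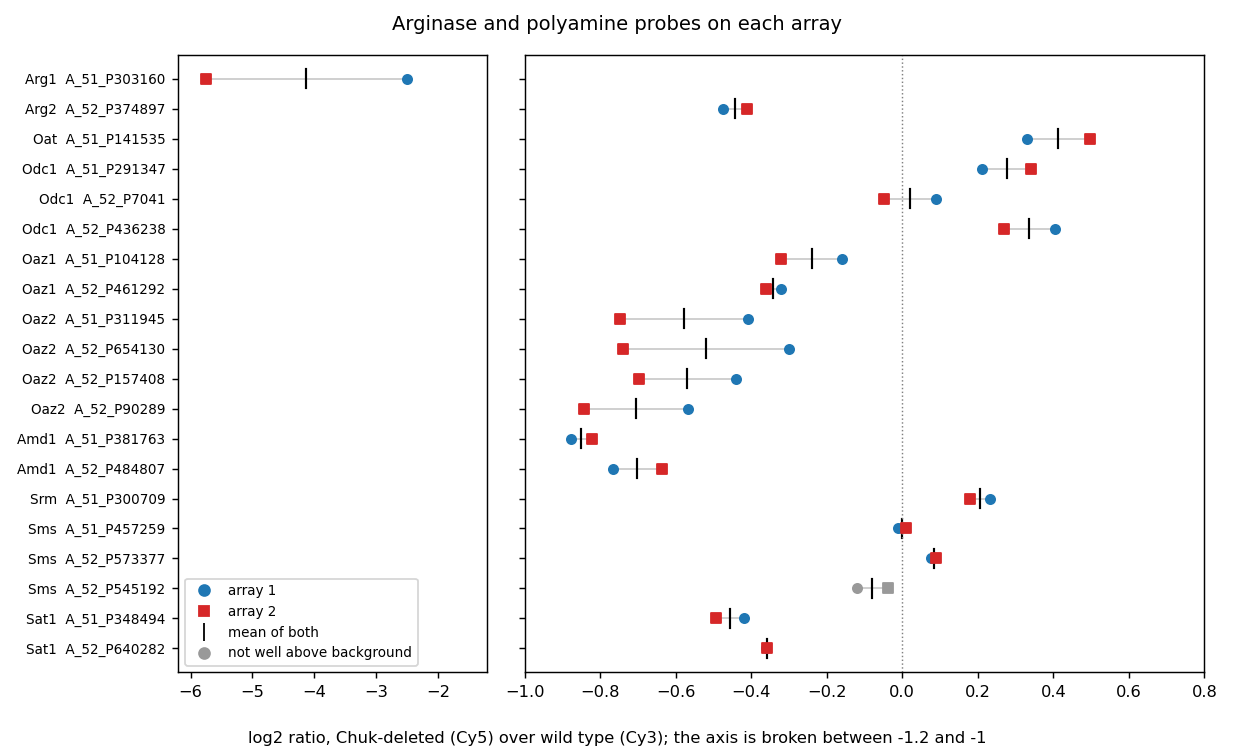
Log2 ratio of Chuk-deleted over wild type for the 20 probes of the 10 genes on array 1 (circles) and array 2 (squares), with the mean of both as a vertical bar and the probe that was not well above background in grey. The panels have different scales. The left one holds Arg1 alone, at -2.50 and -5.75, and all other probes lie between -0.88 and 0.50.

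Over the 19 tested probes the median log2 ratio was -0.36 (-0.32 on array 1 and -0.36 on array 2), beside 0.02 over all tested probes. By the limma fit across all probes, 12 of the 19 lay past the threshold of 0.05 as lower and 4 as higher. Of all tested probes 27.9% were called lower and 33.5% higher. Nothing is read from these counts, because the genes were chosen with this contrast known. The split was 3 lower and 11 higher with median centring in place of loess and 19 lower and 0 higher with spike-in centring. All 23519 tested probes moved likewise. Of them 1581 were called lower and 16402 higher with median centring, and 21188 lower and 462 higher with spike-in centring. Only Arg1 was at least 2-fold lower on both arrays and no member probe was 2-fold higher, where 2.38% and 1.46% of all tested probes were. The sign was the same on both arrays for 17 of the 19, and for 89.2% of all tested probes. Set against the median of all tested probes, 11 of the 19 lay below it and 4 above it under each of the 5 normalisations compared. On this scale, here and below, spike-in centring equals loess by construction and is no separate check.

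Arginase 1, the cytosolic enzyme, was measured by a single probe. In the wild-type channel its normalised log2 intensity was 13.80 on array 1 and 14.01 on array 2. In the Chuk-deleted channel it was 11.30 and 8.27. The wild-type levels were alike on the arrays and the Chuk-deleted ones far apart. The log2 ratios were -2.50 and -5.75, with a mean of -4.12 ± 2.30 (SD, n = 2), a 17.4-fold difference. As scanned, the spot had 10649 and 8078 units in Cy3 and 5282 and 410.2 units in Cy5, where the local background was 70 and 72, so the low Cy5 signal of array 2 was still well above background. In bulk RNA, fewer cells that express a gene and less of its RNA per cell cannot be told apart.

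The Arg1 probe had the eighth lowest mean ratio of the 23519 tested probes, with 7 below it. On array 1, 51 probes had a lower ratio, and on array 2 there were 2. Its ratios differed by -3.25 on the log2 scale (array 2 minus array 1), a larger gap than those of any other tested probe in either direction. The median absolute difference between arrays was 0.081 over all tested probes and 0.13 over the member probes. The mean stayed between -4.89 and -3.46 under all normalisations tried, so neither the direction nor the gap between Arg1 and the other members depended on this choice. The size of the difference, however, is not settled by 2 arrays.

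**Figure D2:**
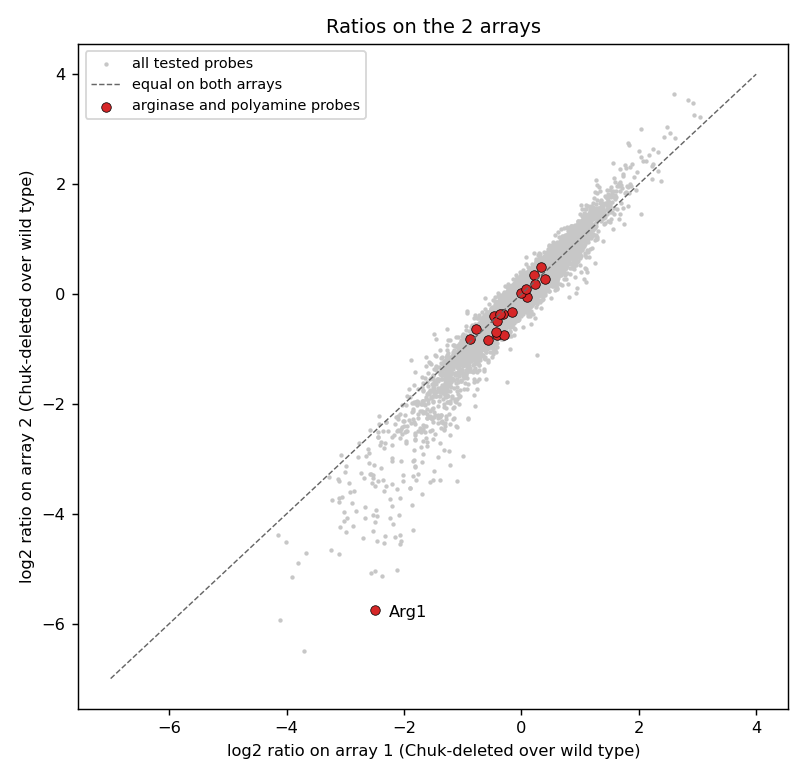
Log2 ratio on array 1 (horizontal) against array 2 (vertical) for all 23519 tested probes in grey and the 19 tested probes of the arginase and polyamine genes in red, with the line of equal values. Arg1, at -2.50 and -5.75, lies farther from the line than any other probe, while the array difference of the other 18 is at most 0.44 in size.

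Macrophages are another source of Arg1. Of 8 macrophage markers, 5 were tested. Of these, 3 fell (Adgre1, Lyz2 and Csf1r, with mean ratios of -1.15, -1.02 and -0.81) and 0 rose, and Cd68 and Cd14 did not pass the threshold. For Adgre1 and Csf1r the Cy5 signal was well above background on 1 of 2 arrays. The summed normalised intensity of the 8 markers was 4642 to 4700 in the wild-type and 3339 to 3412 in the Chuk-deleted channel, and the leukocyte and macrophage genes Ptprc, Itgam and Mrc1 were not well above background. Of the 10 keratinocyte markers 6 rose (Krt5, Krt14, Trp63, Itga6, Itgb4 and Col17a1) and 4 fell (Dsp, Perp, Sfn and Jup). Their summed intensity was 810200 to 812600 in the wild-type and 1105000 to 1120000 in the Chuk-deleted channel. Such a sum weighs the brightest probes most. Of all genes tested, 33.0% rose and 28.3% fell. Of 10 fibroblast markers 8 rose and 1 fell (summed intensity 49720 to 59320 in wild type and 95310 to 100400 in Chuk-deleted), and of 6 tested melanocyte markers 5 fell and 0 rose (48180 to 49450 and 17960 to 20260). These directions too vary with the setting. With loess, median centring in place of loess and spike-in centring in turn, 6, 8 and 3 of the 10 keratinocyte markers had a mean ratio above 0, as did 9, 10 and 5 of the 10 fibroblast, 1, 2 and 0 of the 6 melanocyte and 1, 2 and 0 of the 5 macrophage markers tested. The part of any of these cell types in the ratios of Arg1 and the other genes was not tested.

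Arg2, the mitochondrial arginase, was close to background, and its Cy5 signal was well above background on 1 of 2 arrays. Its log2 ratios were -0.47 and -0.41, a mean of -0.44 ± 0.05. The value depended on how the background was handled: it was -0.74 with a smaller offset of 10 and -1.30 ± 0.32 in the scanner software's own ratio. The direction was the same in each of these, and also with median centring (-0.52) and spike-in centring (-1.21).

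Oat, the mitochondrial ornithine aminotransferase that turns ornithine toward proline and glutamate, was higher in the Chuk-deleted channel. Its normalised log2 intensity in wild type was 12.94 and 12.76, and in Chuk-deleted 13.27 and 13.26. The ratios were 0.33 and 0.50, with a mean of 0.41 ± 0.12 or 1.33-fold. With spike-in centring it was -0.35. Relative to the median of all tested probes it stayed above 0 throughout, between 0.39 and 0.66.

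**Figure D3:**
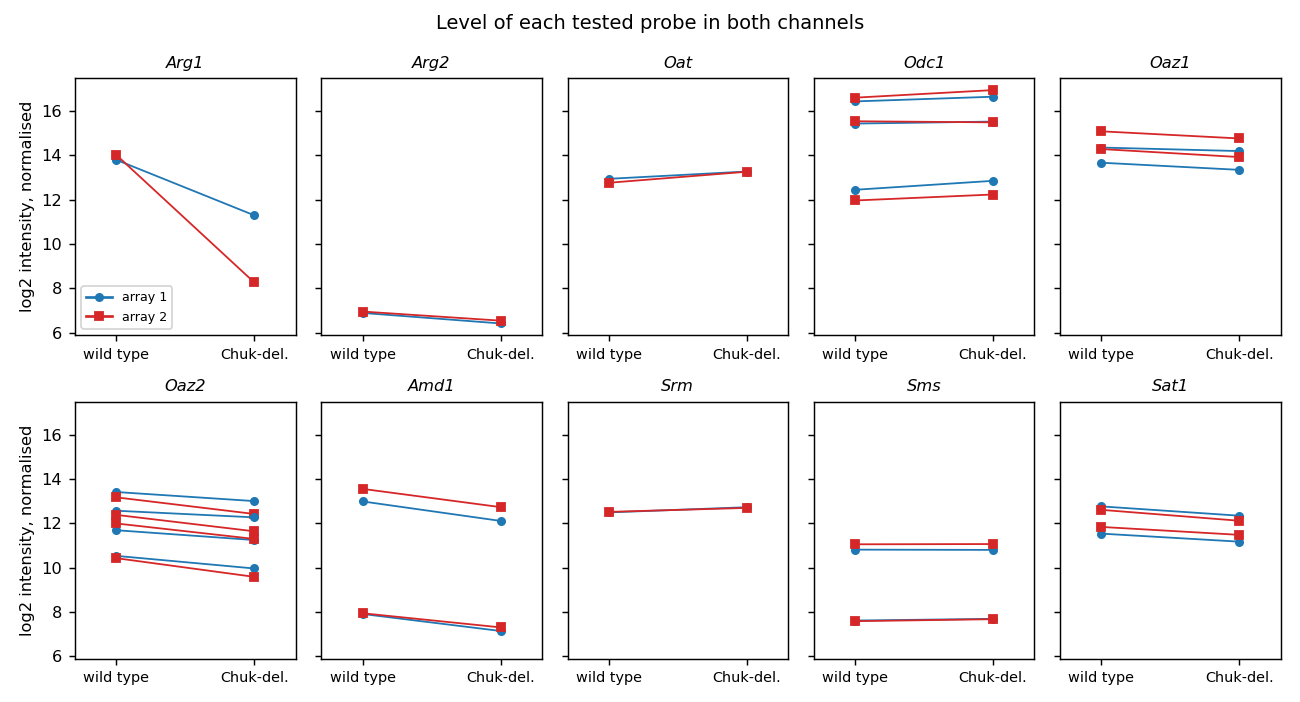
Normalised log2 intensity of each tested probe in the wild-type (Cy3) and Chuk-deleted (Cy5) channels, joined by a line for array 1 (circles) and array 2 (squares), with a panel for each gene. In Arg1 the wild-type levels lie together at 13.80 and 14.01 and the Chuk-deleted levels apart at 11.30 and 8.27, and in the other genes the steepest line is that of Amd1 on array 1, with a ratio of -0.88. Levels of different probes are not comparable, as probes differ in brightness.

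Promoters of 7 of the 10 genes were found in a RefSeq table (GRCm38.p6), and those of Arg1, Arg2 and Srm were not. In the 250 bases before each start, both strands were searched for CACGTG, the E-box that MYC and MAX bind, and for TATANA, a loose TATA box that was added after the first search. CACGTG was found in 6.02% and TATANA in 22.6% of 32851 promoter windows of the same length. Below are those of the decarboxylase genes and of Sms, shown because they are the only members with a match or, for Odc1, because MYC control of this gene is well known. Capitals mark the matches. The windows are chr12:17544623-17544872 (+ strand) for Odc1, chr10:40302189-40302438 (− strand) for Amd1 and chrX:157492288-157492537 (− strand), the more upstream of 2 starts, for Sms.
Odc1: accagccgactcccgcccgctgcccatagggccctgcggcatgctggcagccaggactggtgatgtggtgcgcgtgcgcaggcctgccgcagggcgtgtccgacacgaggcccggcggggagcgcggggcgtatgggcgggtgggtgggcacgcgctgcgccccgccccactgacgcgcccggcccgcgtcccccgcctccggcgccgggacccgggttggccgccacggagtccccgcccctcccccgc
Amd1: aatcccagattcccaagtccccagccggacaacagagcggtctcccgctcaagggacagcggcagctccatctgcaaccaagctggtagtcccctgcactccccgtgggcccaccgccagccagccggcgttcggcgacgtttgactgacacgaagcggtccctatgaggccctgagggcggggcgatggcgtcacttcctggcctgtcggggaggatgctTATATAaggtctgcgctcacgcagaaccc
Sms: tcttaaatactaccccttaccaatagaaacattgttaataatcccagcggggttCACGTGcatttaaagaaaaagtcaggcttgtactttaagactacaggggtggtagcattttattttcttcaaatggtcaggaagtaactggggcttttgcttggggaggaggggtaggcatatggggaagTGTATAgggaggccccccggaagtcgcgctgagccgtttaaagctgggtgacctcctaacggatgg
Amd1 held TATATA from 29 bases before its start, which reads as TATANA on both strands. Sms held CACGTG from 196 bases before this start and TATANA on the other strand at 66. The Odc1 window reaches into the gene, whose annotated outermost start is chr12:17544808. It held neither motif, which says only that these letters are not in it. Oat, Oaz1, Oaz2 and Sat1 and the second start of Sms held neither. A match is a string of letters and not a measured site.

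Odc1, the ornithine decarboxylase that makes putrescine and has one of the shortest half-lives known among enzymes, was measured by 3 probes, none of them saturated. Probe A_51_P291347 gave 0.21 and 0.34 (mean 0.28 ± 0.09) and probe A_52_P436238 gave 0.40 and 0.27 (mean 0.34 ± 0.09). Probe A_52_P7041 lay at 0.09 and -0.05 (mean 0.02 ± 0.10). The 3 probes carry the same accession in the files, and the last of them lay below the others by more than the spread between arrays. In the scanner software's ratio the means were 0.20, 0.33 and 0.0033 in the same order. With spike-in centring all 3 were negative.

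The antizymes bind ornithine decarboxylase, send it to the proteasome without ubiquitin and block polyamine uptake, and their synthesis needs a ribosomal frameshift that polyamines promote. Oaz1, the main antizyme, gave -0.16 and -0.32 with one probe (mean -0.24 ± 0.11) and -0.32 and -0.36 with the other (mean -0.34 ± 0.03). Oaz2 was lower with each of its 4 probes, whose means ran from -0.71 to -0.52. On array 1 they lay between -0.57 and -0.30 and on array 2 between -0.84 and -0.70, so every Oaz2 probe was lower on array 2. Of all tested probes, 1.51% to 4.36% had an array difference below that of the 4 Oaz2 probes. As the probes share 1 transcript and 1 pair of arrays, they are not 4 independent measurements. Relative to the median of all tested probes Oaz2 stayed between -0.80 and -0.31 under all normalisations, while 1 Oaz1 probe moved to 0.08 with median centring.

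Amd1 encodes S-adenosylmethionine decarboxylase, which supplies the aminopropyl groups and, with ornithine decarboxylase, sets the pace of polyamine synthesis. Its brighter probe had normalised log2 intensities of 12.99 and 13.56 in wild type and 12.11 and 12.73 in Chuk-deleted. The ratios were -0.88 and -0.82 (mean -0.85 ± 0.04, 1.80-fold lower). The dimmer probe gave -0.77 and -0.64 (mean -0.70 ± 0.09, and -1.25 ± 0.06 in the scanner software's ratio). Both remained negative under all 5 normalisations, although the brighter lay at only -0.15 with median centring. Amd2, a near-identical copy in the mouse genome, can share signal with Amd1, and which of them each probe reads was not examined. The probe named for Amd2 lay at -0.24 and -0.06.

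Srm and Sms encode spermidine and spermine synthase, the aminopropyl transferases that act in turn. Srm gave 0.23 and 0.18 (mean 0.21 ± 0.04, 1.15-fold higher). In the scanner software's ratio it lay at 0.19, and with spike-in centring at -0.56. Its value relative to the median of all tested probes ran from 0.16 to 0.43. Sms lay at -0.01 and 0.01 with its brighter probe (mean -0.0009 ± 0.02) and at 0.08 and 0.09 with another (mean 0.08 ± 0.01). The third Sms probe, not well above background in either channel on either array, was not tested. The 4 genes of the synthesis chain itself thus differed in direction under loess, with Amd1 lower, Srm and 2 of 3 Odc1 probes slightly higher, and Sms and the third Odc1 probe near 0.

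Sat1, the acetyltransferase that marks spermidine and spermine for export or oxidation, was lower. Its probes gave -0.42 and -0.49 (mean -0.46 ± 0.05) and -0.36 on each array (mean -0.36 ± 0.0027). With median centring they were 0.23 and 0.29. Below the median of all tested probes they remained in every setting, by 0.18 to 0.48.

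**Figure D4:**
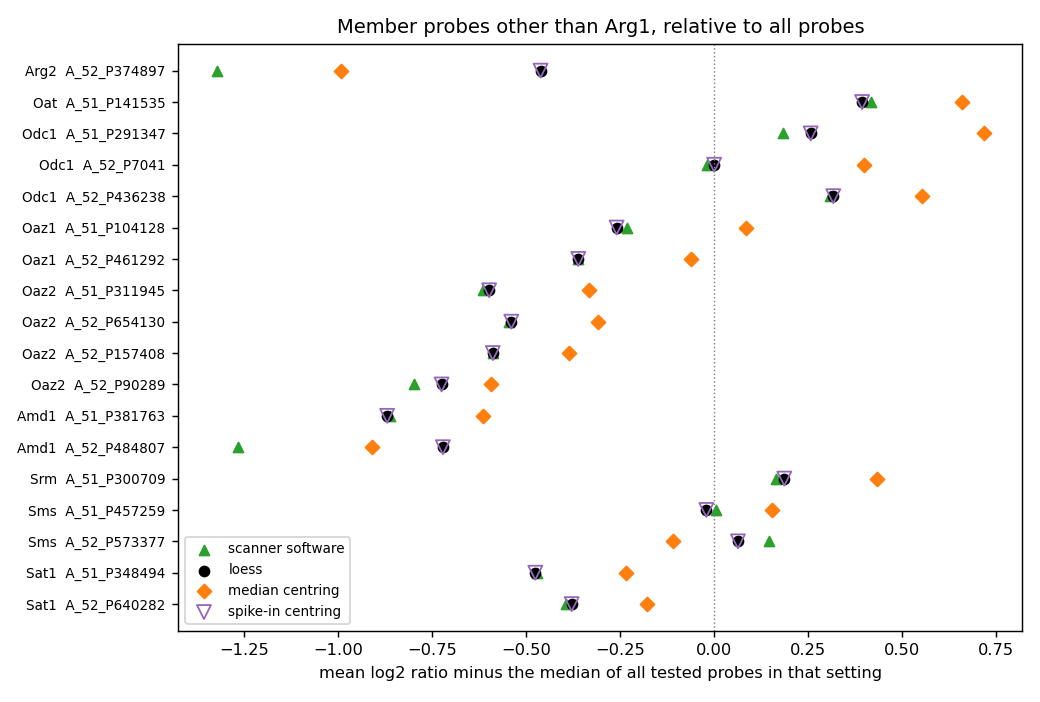
Mean log2 ratio of the 18 tested probes other than Arg1 after subtracting the median of all tested probes, under the scanner software's ratio, loess, median centring and spike-in centring (the last equals loess on this scale by construction). The Arg2, Oaz2, Amd1 and Sat1 probes lie left of 0 and the Oat and Srm probes right of it in each setting, while Sms and 1 probe each of Odc1 and Oaz1 cross 0.

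A list of 53 other genes of arginine, ornithine and polyamine metabolism was examined in the same fit, each by its brightest tested probe. Of these, 52 had a probe and 39 were tested. By limma with Benjamini-Hochberg adjustment over all probes, 16 rose and 8 fell, with a median of 0.06. Of all genes tested 33.0% rose and 28.3% fell. As with the members, the split moved with the setting, to 34 higher and 3 lower with median centring in place of loess and to 0 and 34 with spike-in centring. Of all 23519 tested probes, 16402 were called higher and 1581 lower with the former, and 462 and 21188 with the latter. No mean ratio among these 39 genes was as far from 0 as that of Arg1.

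Of 7 tested genes of polyamine metabolism, 2 fell and 2 rose. The spermine oxidase gene Smox had its brightest probe at -0.91 and -1.39 (mean -1.15 ± 0.34, adjusted p = 0.000292, limma), but its other probe was higher, at 0.21 and 0.27, so the gene has no settled direction. Azin1, the antizyme inhibitor that frees ornithine decarboxylase, fell with both probes (-0.41 ± 0.05 for the brighter), while Azin2 (0.29 ± 0.05) and Sat2 (0.31 on each array) rose. Of the genes that supply S-adenosylmethionine and recycle methylthioadenosine, the by-product of both synthases, 4 of 7 rose and 0 fell: Apip (0.52 ± 0.05), Adi1 (0.36 ± 0.03), Enoph1 (0.23 ± 0.02) and Mtap (0.18 ± 0.03). A dimmer Enoph1 probe lay at -0.14, and of the Mat2b probes the brighter (-0.10) did not pass while the dimmer was past the threshold as lower (-0.31). Spermidine is also the donor of hypusine on the translation factor eIF5A. By their brightest probes, only Dohh of the 4 genes of that step passed the threshold, with its probes in opposite directions (-0.20 for the brighter and 0.33). Eif5a itself lay at -0.15 ± 0.08 by its brighter probe and at -0.37 by the dimmer, which was past the threshold as lower.

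Of 7 tested genes of arginine and nitric oxide metabolism 3 rose and 3 fell. The urea cycle gene Ass1, which joins citrulline and aspartate, rose with both probes (0.60 and 0.81 on the arrays with the brighter, mean 0.70 ± 0.15, adjusted p = 0.000276, limma). Its partner Asl, which then releases arginine, fell (-0.25 ± 0.07). Gamt, of creatine synthesis, rose (0.55 ± 0.04), while Gatm, which precedes it, fell (-0.19 ± 0.02). The Cy3 signal of Gatm was well above background on only 1 of the arrays. Ddah1, which degrades methylarginines, rose (0.43 ± 0.02). The endothelial nitric oxide synthase gene Nos3 fell (-0.46 ± 0.10, and -0.97 in the scanner software's ratio). Its probe was dim, with a mean log2 intensity of 7.11 beside 6.70 for Arg2, which limits the precision of its ratio. Otc, Cps1, Nags, Nos1 and Nos2 were not tested, as they were not well above background on both arrays.

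Among 7 tested genes of the ornithine, proline and glutamate route 3 rose and 1 fell. Those that rose included Aldh4a1 (0.52 ± 0.06), the last enzyme of proline breakdown to glutamate, and Pycr1 (0.25 ± 0.03), which completes proline synthesis. Aldh18a1, at -0.03 and 0.28, did not pass the threshold. Of 7 tested transporters 4 rose and 1 fell. The mitochondrial carrier gene Slc25a29 rose most (0.85 and 1.06, mean 0.95 ± 0.15, adjusted p = 0.000102, limma), followed by the polyamine transporter genes Atp13a3 (0.75 ± 0.01) and Slc18b1 (0.58 ± 0.02) and by Slc3a2 (0.32 ± 0.08). Atp13a2, a lysosomal polyamine exporter, fell (-0.96 and -1.10, mean -1.03 ± 0.10, adjusted p = 5.87e-05, limma). The arginine importer gene Slc7a1 lay at 0.04 and 0.20 and did not pass.

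**Figure D5:**
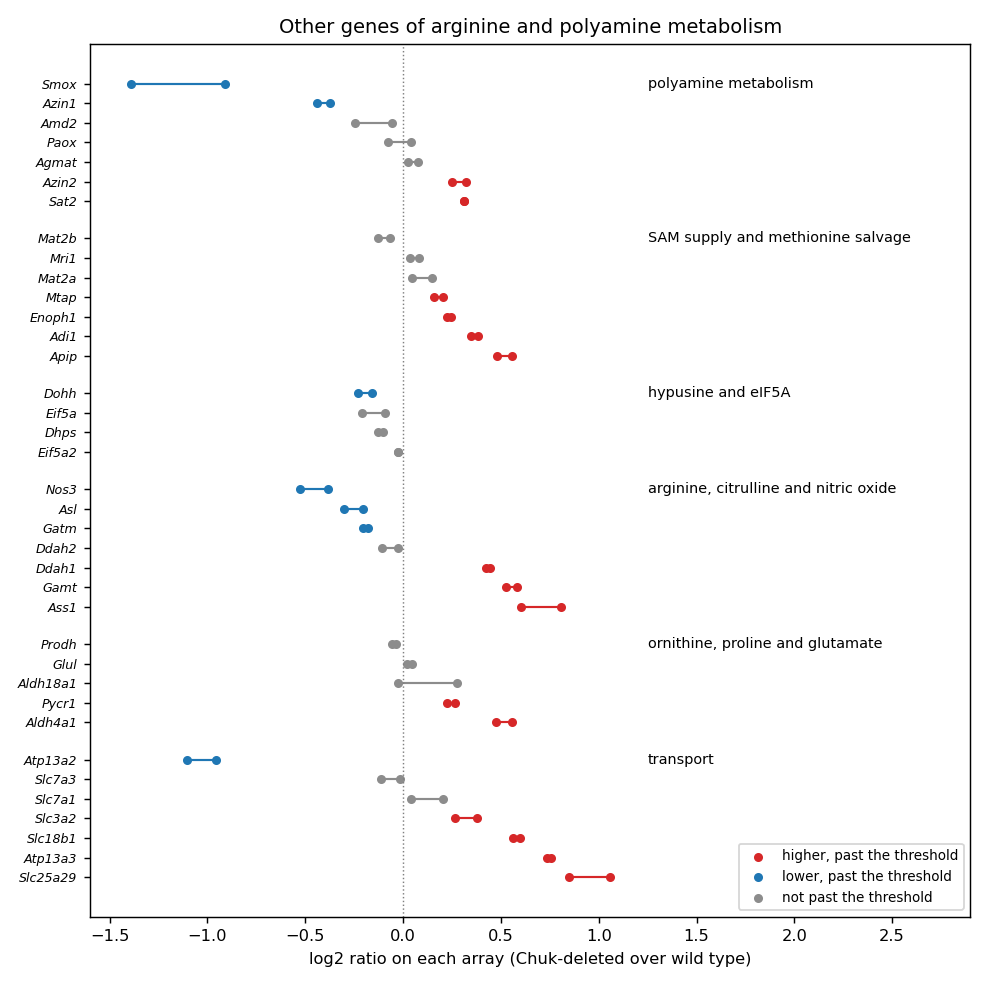
Log2 ratio on each array (2 joined points) for 37 of the 39 tested genes of the wider list, by group, with genes past the threshold as higher in red and as lower in blue and the others in grey. Smox and Atp13a2 lie farthest to the left, at means of -1.15 and -1.03, and Slc25a29 farthest to the right at 0.95.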

How the data were processed

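Transcript levels were read from 2 two-colour arrays of the same slide and scan. Per the file headers, Agilent Feature Extraction 9.1.3.1 made the deposited scanner files. Their deposited intensity columns hold a mean spot brightness and a median local background for each channel, without correction. The authors' deposited log10 ratio of Cy5 over Cy3 had its background and dye bias removed by the software, per the file headers, and the deposited values of the series equal it to within 0.005.

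In R 4.3.3 with limma 3.58.1 and data.table (version 1.17.8), background was corrected by normexp (offset 50). Log2 ratios were then loess normalised array by array, giving control spots no weight, and outlier spots (51 and 18) were dropped. Probes with a signal well above background in 1 channel or both of each array were tested by lmFit and eBayes against 0, two-sided, with Benjamini-Hochberg adjustment (1 residual and 5.16 prior degrees of freedom). On simulated data the share of false calls ran somewhat above the nominal threshold. Channel levels are after loess and Aquantile. Names were updated through RefSeq (GRCm38.p6): 16129 probes matched by accession, 4721 by symbol or synonym, 628 kept their deposited name and 2041 had none, which left 13739 genes. Alternatives were an offset of 10, median and spike-in centring, the software's ratio, other filters on dim probes and leaving out an array. The members and lists were chosen with earlier results of these data known. The genes named are every member, every gene of the wider list past the threshold, and Chuk. The values of some genes so named are not reported here.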

Additional observations from a re-analysis of the deposited data

How the results depend on the processing

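Most directions turned under 1 of the settings. With median centring in place of loess, which changes 2 choices together and shifted the probes unequally, 16402 tested probes were higher and 1581 lower, 2083 and 285 of them 2-fold on both arrays. Of the member probes 11 were higher and 3 lower, and of the wider list 34 and 3. With spike-in centring, whose zero was not checked, 462 tested probes were higher and 21188 lower, 40 and 3394 of them 2-fold on both arrays. Of the member probes 0 were higher and 19 lower, and of the wider list 0 and 34. In the scanner software's ratio, 1022 tested probes were 2-fold higher and 984 lower on both arrays. By adjusted p in that ratio, 6797 tested probes were called higher and 5470 lower, and of the 19 member probes 2 higher and 11 lower. The cause was not tested.

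Median centring in place of loess turned the means of Sat1 (0.29 and 0.23), Oaz1 (0.41 and 0.55), 3 Oaz2 probes (0.14, 0.16 and 0.082) and the brighter Sms probe (0.62) positive. Spike-in centring turned those of Odc1 (-0.43, -0.74 and -0.49), Srm (-0.56), Oat (-0.35) and the dimmer Sms probe (-0.68) negative. The brighter Sms probe lay at 0.027 in the scanner software's ratio. An offset of 10, no filter on dim probes and a filter on both channels moved no count by over 1.5 times. Neither did counting every tested probe of the wider list.

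With 1 array left out no test is possible, since no residual degree of freedom remains. The count of 2-fold higher probes then ran from 385 to 577 and that of 2-fold lower ones from 593 to 760. No paired analysis was possible because both arrays belong to a single group and each already sets the channels against each other. Signals near background, among the members those of Arg2 and the dimmer Amd1 and Sms probes, limit the precision of their ratios.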

Other observations

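The wide gap between the arrays that Arg1 showed had company. Of all tested probes, 16 had a log2 ratio lower on array 2 than on array 1 by more than 2, and 0 had one higher by as much. These probes were picked after their values were seen, and no test was made. After Arg1 (-3.25) came Dynap (-2.90), Klk7 (-2.78), Asprv1 (-2.75) and Krt23 (-2.55). Klk7 encodes a kallikrein that sheds corneocytes and Asprv1 a protease that processes filaggrin, both of the outermost epidermis, and Krt23 a keratin. The change lay mainly in the Chuk-deleted channel, where the normalised log2 intensity differed between the arrays by -3.03 for Arg1, -3.20 for Dynap, -2.17 for Klk7, -2.37 for Asprv1 and -2.49 for Krt23, against 0.22, -0.30, 0.61, 0.38 and 0.06 in the wild-type channel. Of the 593 tested probes at least 2-fold lower on array 1, 480 (80.9%) were lower still on array 2, with a median difference of -0.31. Of the 385 at least 2-fold higher on array 1, 288 (74.8%) were higher still on array 2, with a median difference of 0.15. Of all tested probes 45% were lower on array 2. Probes that were 2-fold apart on array 1 thus tended to lie farther from 0 on array 2 in both directions.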
